A study of Mus musculus with 16 samples.

Results

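T cells of OT-I mice on a high-fat diet were compared between visceral adipose tissue (VAT) and lymph node (LN) over the whole transcriptome. The comparison rests on the 8 libraries that the labels assign to the high-fat diet (HFD), out of 16 in the series, with 4 from VAT and 4 from LN. Both groups carry the OT-I transgene, which makes T cells that recognise a peptide of ovalbumin, and both had received a diet with 60% of its energy from fat for 8 weeks. Strain background, age, and the number of animals pooled in a library are not stated, and the labels name every replicate as biological without saying that it came from a separate animal. The other 8 libraries are LN and VAT of lean OT-I mice and serve here as a second set of tissue libraries. All 16 were fitted together, so the lean libraries share the filter, scaling, and estimate of spread with the HFD comparison. The labels describe the cells as freshly isolated in 1 place and as held overnight in culture before sorting in another, and the second header line of the count table carries an unexplained term, Neg-OVA. The kit, sequencer, and growth conditions are named in more than 1 version in the labels, and no batch or date is given.

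Naive CD8 T cells recirculate through lymph nodes, where they are kept alive by interleukin 7 and by weak contacts of their receptor with self MHC. Cells that have met antigen or inflammatory cytokines lose part of this resting programme, switch their metabolism and cytoskeleton, and can settle in tissues such as visceral fat. Fat is a lipid-rich site, and in obesity it holds many T cells and macrophages. Killer genes, interferon-stimulated genes, and homing genes of these cells make up 3 lists that are only counted here, and the account below concerns the rest of the transcriptome. Levels are given as mean ± SD over 4 libraries or library by library in the order of replicates 1 to 4, and fold changes as log2 of VAT over LN ± standard error.

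**Figure D1:**
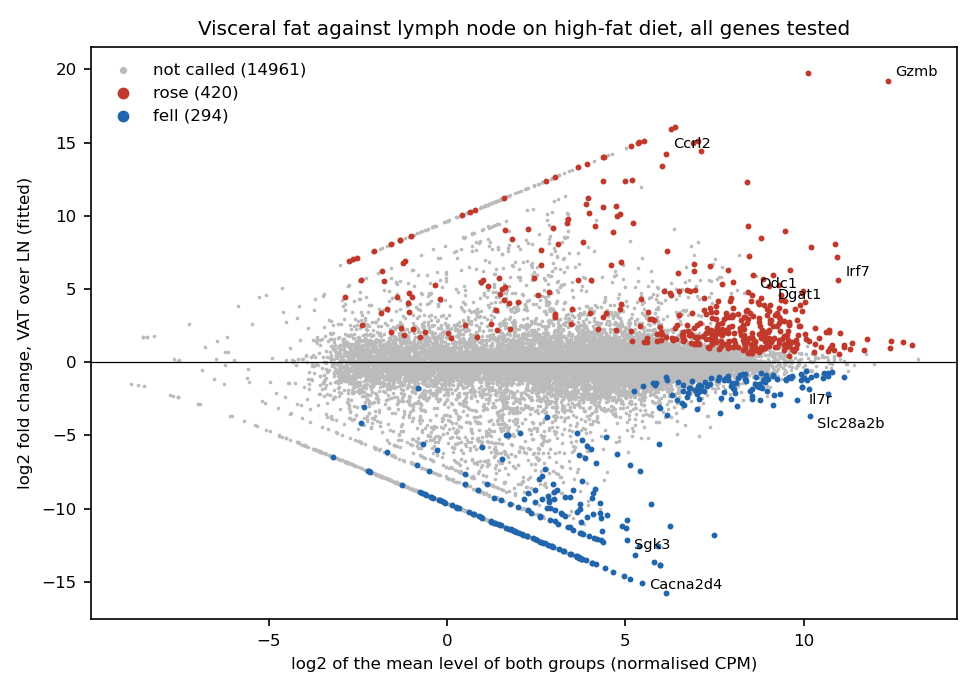
Each point is 1 of 15675 genes tested, with the log2 of its mean level over VAT and LN (normalised CPM) on the x axis and its fitted log2 fold change, VAT over LN, on the y axis. Of the called genes, 420 rose (red) and 294 fell (blue), and the falls reach down along a straight lower edge formed by genes with no counts in VAT.

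Libraries held 40212388 to 54019116 counts. In a single library 3 counts, the level taken as the floor, correspond to 0.0512 to 0.0803 CPM (counts scaled to the TMM-normalised library size), and this covers counting error only, because PCR copies are not independent molecules. A count was present for 16935 ± 424 genes (SD, n = 4) in VAT and for 18895 ± 538 in LN (exact two-sided permutation p = 0.0286, the smallest that 4 against 4 allows, and 0.0416 after Benjamini-Hochberg adjustment over 16 library measures). VAT replicates 1 and 3 stood apart from the other 6 libraries. Of the genes whose group median reached 10 CPM, 11.3% and 11.4% had 3 counts or fewer in these 2 libraries, against 4.17% and 5.38% in the other VAT libraries and 2.32% to 4.71% in LN. They also lay at opposite ends of the second principal component of the 8 libraries, which took 17.9% of the variance, while the first took 31.7% and separated the tissues. Below, the 3 VAT libraries left out together are these 2 and replicate 1 of lean VAT, whose missing share is not given here. A gene given with its values that loses its call without these 3 is marked, apart from genes chosen after their values were seen.

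The labelled cell type was checked first. Cd3d, a chain of the CD3 complex, had 973 ± 149.6 CPM across VAT and 880.2 ± 129.7 CPM across LN, and Trbc2, the receptor beta constant region, had 3843 ± 478 and 4117 ± 553 CPM. Neither differed by the test (adjusted p = 0.849 and 0.853). Transcripts of other cells were not alike in the tissues. The 24 B and plasma cell markers of the list summed to 2228 to 3088 CPM in LN and to 202 to 359.8 CPM in VAT. Of 22 tested 13 fell, and 8 did without the 3 VAT libraries. Among the defining markers, Cd79a, a chain of the B cell receptor complex, had 88.2, 85.9, 112 and 192 CPM in the LN libraries and 3 counts in the 4 VAT libraries together. The adipocyte list summed to 0.159 to 40.6 CPM in VAT, with Plin4, Retn, Cidec, Fabp4, and Pparg at 0 counts in every VAT library, and the upper value came almost whole from Dcn, at 40.4 CPM in VAT replicate 3. The macrophage list summed to 45.3 to 145.6 CPM in VAT and 64.1 to 205 CPM in LN, with Cd14, C1qa, C1qc, and Marco at 0 in all 8 libraries and Lyz2 at 16.1 CPM in VAT replicate 4 alone. Natural killer and innate lymphoid markers, several of which CD8 effector cells also carry, were higher in VAT in 12 of 12 tested genes and summed to 1181 to 1353 CPM there and 19.0 to 35.3 CPM in LN, with 1 rise, Klre1. Markers of CD4, regulatory, and gamma delta T cells summed to 675 to 805 CPM in VAT and 279 to 461 CPM in LN, with 1 fall of 9. In bulk libraries, fewer cells of a type and less RNA per cell cannot be told apart, and the part of B cells in the falls described below was not tested.

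The test called 714 genes (4.56%) of 15675, at a threshold of 0.05 on p-values of edgeR's quasi-likelihood test after Benjamini-Hochberg adjustment. In VAT 420 (2.68%) rose and 294 (1.88%) fell. The p-values measure the spread between these libraries, which may be partly technical. A different tool gave a different balance: DESeq2 called 1224 rises and 1474 falls. Without VAT replicates 1 and 3 and lean VAT replicate 1 the counts were 352 and 316. Leaving out 1 HFD library at a time gave 304 to 370 rises and 179 to 282 falls. With 1 lean library left out there were 368 to 487 rises and 231 to 399 falls. Of the 714 calls, 139 rises and 13 falls are in the 3 lists of killer, interferon-stimulated, and homing genes, which leaves 281 rises and 281 falls elsewhere. Only 189 of these lie in a functional list used here, and 373 lie in none.

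Rises were smaller and lay in genes of higher level, and falls were larger and lay in genes of lower level. Rises had a median log2 fold change of 2.51 and a median level of 343 CPM in the higher group, while falls had a median of -8.36 and a median level of 33.6 CPM. At 16-fold or more there were 129 of 420 rises and 182 of 294 falls, and the lower group held at most 3 counts over its 4 libraries in 44 rises and 134 falls. The 4 VAT and 4 LN libraries did not overlap in 408 of the 420 rises and 263 of the 294 falls, against 2385 (15.2%) of all genes tested. Part of the genes named below were chosen for not overlapping, and for these the separation was fixed by the choice. Genes with at least 10 counts in every library of 1 tissue and at most 3 counts in each library of the other numbered 52 for VAT and 144 for LN. In the lean libraries, which are separate samples, 12 of the 52 and 18 of the 144 met the same condition. Among the 144, 18 are B cell markers, immunoglobulin segments, or MHC class II genes. The share of genes called was 1.85% below 1 CPM, 2.63% from 1 to 5 CPM, 3.81% from 5 to 20 CPM, 2.33% from 20 to 100 CPM, 10.5% from 100 to 500 CPM, and 46.9% at 500 CPM or more, where 105 of 292 genes rose and 32 fell. The plot of level against difference shows this as a dense red group at the right and a thin blue line at lower left.

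**Figure D2:**
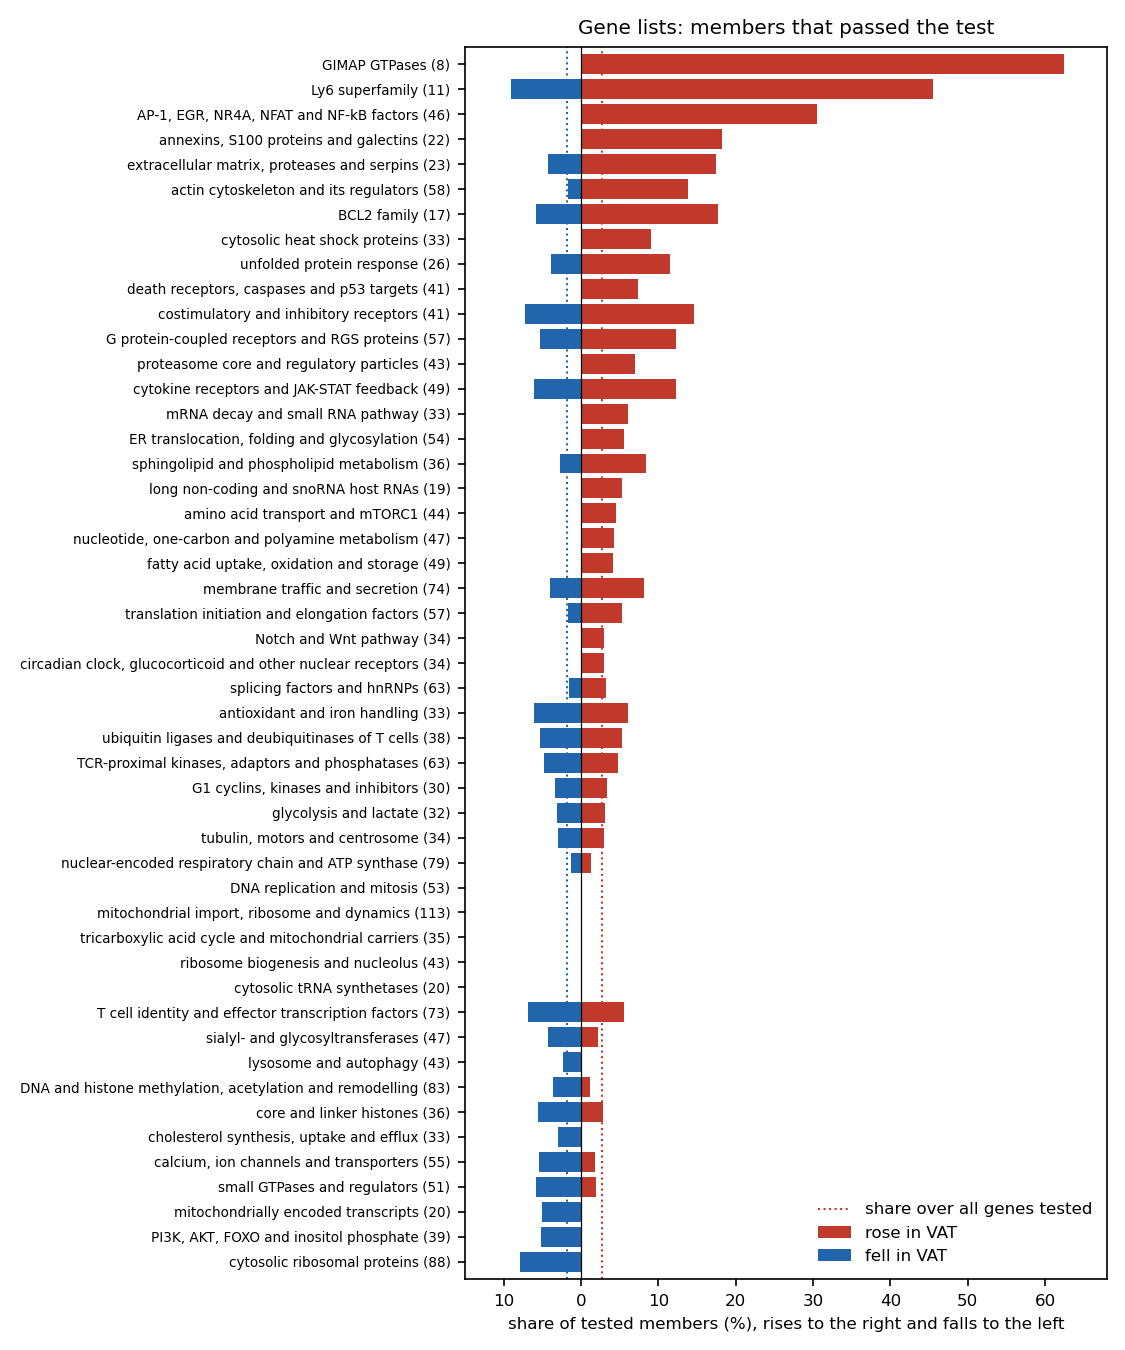
Each bar gives the share (%) of the tested members of a gene list that rose in VAT (red, to the right) or fell (blue, to the left), with the number tested in brackets and dotted lines at the shares over all genes tested, 2.68% and 1.88%. GIMAP GTPases stand at the top with 62.5% risen, and cytosolic ribosomal proteins at the bottom with 7.95% fallen. The dotted lines are not matched for level, and the share called was 2.33% from 20 to 100 CPM and 46.9% at 500 CPM or more.

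Cytokine receptors changed in both directions. In a list of 49 cytokine receptors and JAK-STAT feedback genes, 6 rose and 3 fell, and the median log2 fold change was 0.39, against -0.10 over all genes. Il2rg, the common gamma chain shared by receptors for interleukins 2, 7, and 15, had 1005, 953, 1012 and 1299 CPM across VAT and 484, 484, 421 and 507 CPM across LN. The VAT libraries were all higher, with a 2.25-fold ratio of means and a log2 fold change of 1.17 ± 0.12 (SE; adjusted p = 3.45e-05). Ifngr1, the ligand-binding chain of the interferon gamma receptor, had 3621, 3122, 3171 and 3375 CPM across VAT and 725, 874, 949.8 and 806 CPM across LN, a log2 fold change of 1.99 ± 0.23 (adjusted p = 0.000120). Stat3, a transcription factor downstream of interleukins 6, 10, and 21, had 904, 1131, 834 and 1312 CPM across VAT and 248, 212, 213 and 281 CPM across LN, again with no overlap (log2 fold change 2.13 ± 0.19, adjusted p = 1.43e-05). Il7r, the specific chain of the interleukin 7 receptor, went the other way, with 274, 546, 517 and 500.2 CPM across VAT and 1584, 1239.7, 1543 and 1677 CPM across LN. Every VAT library was below every LN library (log2 fold change -1.72 ± 0.23, adjusted p = 0.000448, and 0.0556 with limma voom). Jak1, the kinase that these receptors share, fell from 2989.8 ± 437 to 1522 ± 273 CPM (log2 fold change -0.97 ± 0.19, adjusted p = 0.00725, and 0.199 with limma voom). The common gamma chain and Il7r, partners in 1 receptor, moved in opposite directions.

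Costimulatory and inhibitory receptors also split, with 6 of 41 members risen and 3 fallen and a list median of 0.93 (4 and 2 without the 3 VAT libraries with most missing genes). Tnfrsf18, which encodes GITR, had 497, 372, 270.2 and 357 CPM across VAT and 103, 91.98, 91.4 and 66.2 CPM across LN (log2 fold change 2.08 ± 0.33, adjusted p = 0.00157). All VAT libraries lay above all LN libraries. The inhibitory receptor Tigit rose as well, with 19.5, 27.8, 113 and 131 CPM in VAT and 2 counts in all of LN, a ratio of 7095 (95% counting interval 1964 to 58596) and an adjusted p of 0.00109. Its VAT libraries formed a lower pair, replicates 1 and 2, and a higher pair, replicates 3 and 4, and its lean tissue difference did not pass (log2 fold change 3.91, adjusted p = 0.153). Slamf6, a receptor of stem-like and resting T cells, fell from 399 ± 84.6 to 118 ± 45.1 CPM (adjusted p = 0.0240, and 0.0538 without the 3 VAT libraries). Cd40lg, the ligand by which helper T cells license other cells, was at 0 counts in the 4 VAT libraries and at 26.9, 39.8, 22.6 and 21.6 CPM in LN, at least 390.4-fold higher in LN (against 3 counts in each library; adjusted p = 0.00358).

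Among 57 G protein-coupled receptors and RGS proteins, 7 rose (Gpr18, Gpr171, Adgrg5, P2ry10, Rgs1, Rgs2, and Gna13) and 3 fell (S1pr4, Rgs10, and Grk6), with a median of 0.50. Gpr171 had 483, 539, 641 and 452 CPM across VAT and 97.4, 133, 95.7 and 102 CPM across LN (log2 fold change 2.30 ± 0.24, adjusted p = 5.53e-05). Adgrg5, an adhesion-type receptor, had 1136, 671, 478 and 730.2 CPM across VAT and 104, 99.5, 142 and 99.3 CPM across LN (log2 fold change 2.76 ± 0.29, adjusted p = 7.16e-05). Both were higher in every VAT library. Ccrl2, an atypical receptor that binds the chemoattractant chemerin, had 151, 149, 161 and 105 CPM in VAT and 1 count in the 4 LN libraries together, a ratio of 28505 (95% counting interval 5116 to 1125940.0) and an adjusted p of 3.46e-06. It was close to absent from LN at this depth and present in all VAT libraries. Rgs10, which ends signals of G proteins, fell from 231 ± 44.4 to 25.8 ± 14.1 CPM (log2 fold change -3.16 ± 0.51, adjusted p = 0.00179), and Grk6, a kinase that desensitises such receptors, from 556 ± 48.3 to 331 ± 59.5 CPM (adjusted p = 0.00748). P2rx7, a channel opened by extracellular ATP, rose from 0.743 ± 1.45 CPM in LN, where replicate 4 alone carried 2.91 CPM, to 143 ± 70.7 CPM in VAT (adjusted p = 0.0133). With the HFD libraries fitted alone, P2rx7 had an adjusted p of 0.0930.

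The antigen receptor machinery showed as many falls as rises, 3 each of 63 (5 and 6 without the 3 VAT libraries). The 2 chains of the CD8 coreceptor moved in opposite directions. Cd8a had 1839, 2299, 1956 and 2213 CPM across VAT and 635, 801, 691 and 533 CPM across LN, a log2 fold change of 1.64 ± 0.15 (adjusted p = 1.68e-05). Cd8b1 had 1149, 1102, 1338 and 1323 CPM across VAT and 2001, 2262, 2059 and 1965 CPM across LN, a log2 fold change of -0.75 ± 0.13 (adjusted p = 0.00241). Neither pair of groups overlapped. Lat, the membrane scaffold of receptor signalling, had 373, 322, 252 and 216 CPM across VAT and 623, 706, 724 and 590.4 CPM across LN and fell (log2 fold change -1.18 ± 0.16, adjusted p = 0.000410). Sh2d2a, a T cell adaptor that binds Lck, rose from 329.6 ± 102 to 1011 ± 149.8 CPM (log2 fold change 1.62 ± 0.22, adjusted p = 0.000390).

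Of 39 genes of PI3K, AKT, and FOXO signalling none rose and 2 fell, and of 51 genes of small GTPases and their regulators 1 rose and 3 fell. Rasgrp2, an activator of Rap and among the falls, had an adjusted p of 0.0750 without the 3 VAT libraries. Pik3ip1, an inhibitor of PI3K found in resting T cells, had 152, 31.7, 203 and 115 CPM across VAT and 749, 801, 843 and 610.2 CPM across LN, a 5.98-fold lower mean (log2 fold change -2.58 ± 0.42, adjusted p = 0.00203). Sgk3, a kinase related to AKT, had 33.98, 58.7, 98.7 and 72.2 CPM in LN and 2 counts in all of VAT (adjusted p = 2.05e-05), a ratio of LN to VAT of 5412 (95% counting interval 1498 to 44690.0). The same gene fell in the lean libraries (log2 fold change -10.40, adjusted p = 5.79e-05). Arhgdib, an inhibitor of small GTPases, fell from 1566 ± 183 to 783 ± 148 CPM (adjusted p = 0.00174) and Sipa1l1, an activator of Rap GTPase activity, rose from 39.8 ± 18.6 to 205 ± 100.4 CPM (adjusted p = 0.00897). With the HFD libraries fitted alone, Sipa1l1 had an adjusted p of 0.0577. In ion transport, 1 of 55 rose and 3 fell. Slc12a7, a potassium chloride cotransporter, fell from 989 ± 238 to 129 ± 81.3 CPM (adjusted p = 0.00921, and 0.160 with limma voom). Cacna2d4, an auxiliary subunit of calcium channels, had 90.3, 30.01, 118 and 114 CPM in LN while VAT had no counts, which is at least 1238-fold higher in LN (adjusted p = 0.000182).

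Transcription factors of T cell identity moved in both directions, with 4 of 73 risen (Id2, Hopx, Rora, and Crem) and 5 fallen (Tcf7, Lef1, Klf2, Klf3, and Mef2c). Without the 3 VAT libraries 1 rose and 5 fell. Id2, an inhibitor of E proteins that is needed by effector CD8 T cells, had the smallest p of the rises outside the 3 counted lists with at least 20 CPM in the higher tissue. Its levels were 1101, 951, 779 and 965 CPM across VAT and 84.01, 57.4, 99.7 and 90.6 CPM across LN, an 11.4-fold ratio with a log2 fold change of 3.52 ± 0.22 (adjusted p = 8.63e-07). Crem, a modulator of cyclic AMP responses, had 410.2, 405, 739 and 459.5 CPM across VAT and 31, 6.22, 0 and 8.42 CPM across LN (adjusted p = 0.0166, and 0.0697 without the 3 VAT libraries). Klf3, a repressor of the Kruppel-like family, had 62.04, 174, 116 and 157 CPM across VAT and 631, 574, 612 and 676 CPM across LN (log2 fold change -2.29 ± 0.35, adjusted p = 0.00129). Lef1, a factor of naive and stem-like T cells that acts with beta-catenin, fell from 618 ± 177 to 202 ± 77.1 CPM (adjusted p = 0.0102, and 0.124 without the 3 VAT libraries). Among 34 nuclear receptors and clock genes the glucocorticoid receptor Nr3c1 was the single call. It had 493, 488, 597 and 426 CPM across VAT and 155, 116, 63.4 and 229 CPM across LN, a log2 fold change of 1.83 ± 0.30 (adjusted p = 0.00240), with no overlap.

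Immediate early and NF-kB factors were the functional list with the most rises, 14 of 46 and no falls. The median log2 fold change was 1.04, and 13 rose without the 3 VAT libraries. The risen members are Fos, Fosl2, Jun, Junb, and Jund of AP-1, Egr1 and Ier2, Relb and Nfkb2 of NF-kB, and the feedback inhibitors Nfkbia, Tnfaip3, Dusp1, Dusp5, and Spry2. Junb had 1715, 1722, 1634 and 1557 CPM across VAT and 455, 442, 447 and 429 CPM across LN (log2 fold change 1.90 ± 0.19, adjusted p = 3.45e-05), and its libraries were close together within each tissue. Tnfaip3, the deubiquitinase A20 that ends NF-kB signals, had 1541, 2734, 1502 and 2068 CPM across VAT and 146, 132, 69.1 and 115 CPM across LN, a 16.97-fold ratio (log2 fold change 4.08 ± 0.37, adjusted p = 2.05e-05). Dusp1, a phosphatase that switches off MAP kinases, had 521, 608, 436 and 482 CPM across VAT and 52.3, 31.2, 63.5 and 65.99 CPM across LN (log2 fold change 3.26 ± 0.30, adjusted p = 2.19e-05). Neither gene had an LN library near its lowest VAT library. Both rose in lean libraries too (log2 fold changes 4.02 and 2.24, adjusted p = 3.18e-05 and 0.000434).

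The promoters of 3 of these feedback genes are shown because the genes rose together, each with another of the motifs searched in capitals. Tnfaip3 and Dusp1 also hold the E-box CACGTG, left in lower case, which was present in 11.8% of all promoters and 4.98% of those of risen genes. The windows are RefSeq promoters of build GRCm38.p6, 250 bases before and 50 after the start of the gene, in its own direction, and capitals mark the motif. Nfkbia lies at chr12:55492598-55492897 on the minus strand and holds the NF-kB motif 29 bases before its start, on the opposite strand. Tnfaip3 lies at chr10:19015361-19015660 on the minus strand, with the AP-1 motif TGACTCA 136 bases before its start, and Dusp1 at chr17:26508423-26508722 on the minus strand, with the cyclic AMP motif TGACGTCA 143 bases before it.
Nfkbia: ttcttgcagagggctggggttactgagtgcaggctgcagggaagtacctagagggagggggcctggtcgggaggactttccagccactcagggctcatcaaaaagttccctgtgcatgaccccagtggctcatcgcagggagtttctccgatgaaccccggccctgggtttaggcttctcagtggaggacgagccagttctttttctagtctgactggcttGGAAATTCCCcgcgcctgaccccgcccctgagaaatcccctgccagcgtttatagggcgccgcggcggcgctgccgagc
Tnfaip3: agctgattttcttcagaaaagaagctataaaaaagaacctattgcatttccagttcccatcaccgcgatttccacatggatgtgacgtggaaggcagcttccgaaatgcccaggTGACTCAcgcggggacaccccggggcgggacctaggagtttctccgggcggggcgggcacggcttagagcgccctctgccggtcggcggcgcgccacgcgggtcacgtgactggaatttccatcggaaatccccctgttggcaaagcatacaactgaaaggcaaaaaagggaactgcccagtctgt
Dusp1: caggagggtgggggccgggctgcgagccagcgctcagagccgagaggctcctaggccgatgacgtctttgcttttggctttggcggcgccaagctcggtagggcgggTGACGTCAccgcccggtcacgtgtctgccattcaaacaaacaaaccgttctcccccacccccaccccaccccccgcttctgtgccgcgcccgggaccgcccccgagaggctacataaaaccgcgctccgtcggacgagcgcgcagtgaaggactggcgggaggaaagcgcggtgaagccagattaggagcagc

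The motifs were then counted over all promoters, on both strands. RefSeq gave a promoter for 9314 of the 15675 genes tested. TGACTCA was present in 4.35% of all of them, in 8.19% of the 281 risen genes with a promoter, and in 4.19% of the 191 fallen genes. Outside the 3 counted lists the share among rises was 5.88% of 170 promoters. The NF-kB decamer, searched in 3 spellings that include the one capitalised in Nfkbia, was present in 0.397% of all promoters and in 3 of the 281 risen genes, which are B2m, Nfkb2, and Nfkbia. The interferon response motif, TTTC followed after 2 bases by TTTC, was present in 3.96% of all promoters, in 19.6% of risen genes, and in 5.29% of risen genes outside the counted lists. CCGGAAG, the motif of ETS factors found near the start of many housekeeping genes, was present in 21.4% of all promoters, in 10.3% of risen and 13.1% of fallen genes. TGACGTCA was present in 3.71% of all promoters and 1.78% of risen genes. These are descriptions of the letters in these windows, with no test.

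Chromatin genes were called in both directions, against 2.68% risen and 1.88% fallen over all genes tested. Of 83 writers, readers, and remodellers 1 rose (1.20%) and 3 fell (3.61%). Of 36 histone genes 1 rose (2.78%) and 2 fell (5.56%), or 1 and 1 without the 3 VAT libraries, where H4c3 had an adjusted p of 0.129. H3f3b, which encodes the replacement histone H3.3, had 3033, 3069.5, 3335 and 2954 CPM across VAT and 1350.3, 1474, 1494 and 1107 CPM across LN (log2 fold change 1.19 ± 0.12, adjusted p = 3.45e-05). Satb1, a chromatin organiser of thymocytes and naive T cells, had 325, 198, 214 and 108 CPM across VAT and 716, 535, 794 and 701 CPM across LN (log2 fold change -1.70 ± 0.32, adjusted p = 0.00657). H3f3b and Satb1 both separated the tissues completely. Ctcf, the insulator protein, fell from 227 ± 44.6 to 109.9 ± 33.7 CPM with an adjusted p of 0.0472 that was lost in 13 of 16 fits leaving out 1 library.

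**Figure D3:**
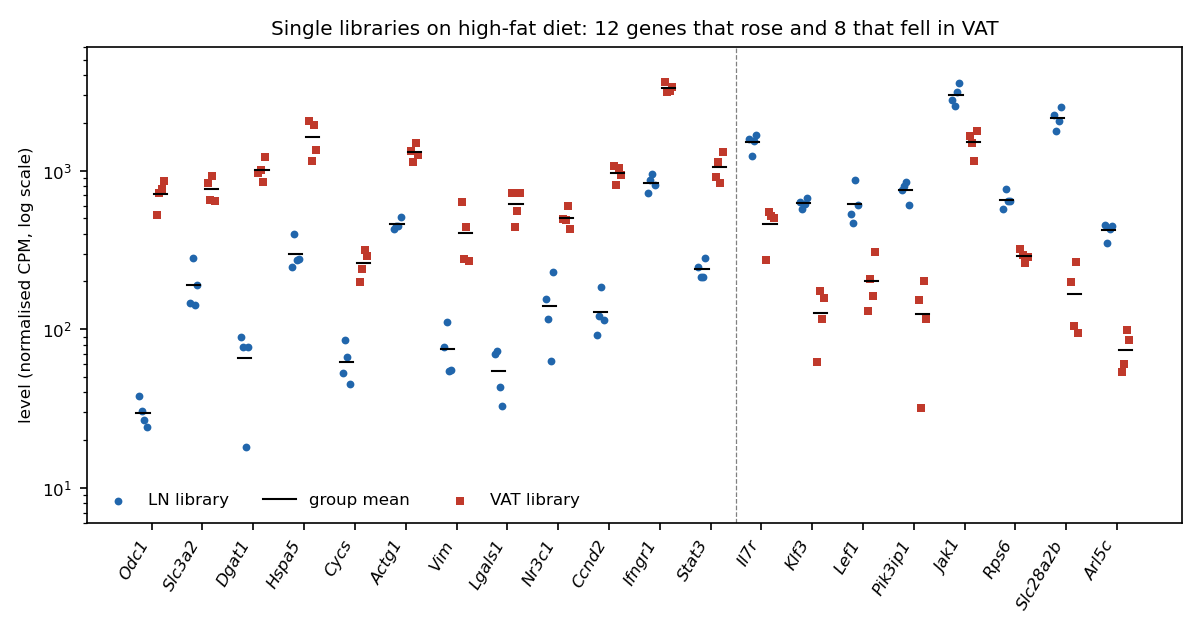
Points are the levels in single libraries (normalised CPM, log scale) of 12 genes that rose and, right of the dashed line, 8 that fell in VAT, with LN in blue circles, VAT in red squares, and black bars at group means. No VAT library overlaps an LN library in any of the 20 genes, but part of the genes were chosen for not overlapping. Dgat1 and Pik3ip1 each have 1 library well below its group.

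Ribosomal protein genes were lower as a body, although few passed the test singly. Of 88 tested, 83 were lower in VAT and 5 higher, and the median log2 fold change was -0.69. Among the 7 that fell were Rpl13, Rpl14, Rps6, Rps7, Rps18, and Rps19, and without the 3 VAT libraries 24 fell. The count ranged from 2 to 20 when a single library was left out. Their summed share of raw counts was 2.16% ± 0.53 in VAT and 4.15% ± 0.60 in LN (exact two-sided permutation p = 0.0286, adjusted 0.0416). Rps6, whose protein is phosphorylated downstream of mTORC1, had 319, 295, 261 and 286 CPM across VAT and 573, 762, 640.2 and 645 CPM across LN (log2 fold change -1.18 ± 0.18, adjusted p = 0.000938). Every VAT library of Rps6 was below every LN library. Many ribosomal proteins have processed pseudogenes, so that single values depend on how reads were assigned. As shares sum to a whole, a lower share does not show fewer molecules per cell.

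In the rest of the translation apparatus calls are set against all genes tested, of which 2.68% rose and 1.88% fell. No member of 20 cytosolic tRNA synthetases or 43 nucleolar genes passed the test, though the nucleolar list had a median of -0.51 with 32 of 43 lower in VAT. Their members of highest level were Vars, valyl-tRNA synthetase, with 369 ± 121 CPM across VAT and 375 ± 102 CPM across LN (adjusted p = 0.991), and Ncl, nucleolin, with 663 ± 149.9 and 460.3 ± 138 CPM (adjusted p = 0.327). Of 57 translation factors 3 rose (5.26%) and 1 fell (1.75%), or 1 and 2 without the 3 VAT libraries. Eif5a, the factor whose hypusine residue is made from spermidine, had 1247, 911, 830.2 and 941 CPM across VAT and 503, 500.4, 489 and 415 CPM across LN (log2 fold change 1.04 ± 0.17, adjusted p = 0.00166). Eef1a1, which delivers aminoacyl-tRNA to the ribosome, fell from 2164 ± 209 to 1383 ± 264 CPM (log2 fold change -0.65 ± 0.13, adjusted p = 0.0118, and 0.0767 with limma voom). In RNA processing 2 of 63 splicing genes rose and 1 fell, and their summed share of raw counts was lower in VAT, 1.41% ± 0.071 against 1.77% ± 0.10 (exact permutation p = 0.0286, adjusted 0.0416). On the TMM scale the sums overlapped, at 14914 to 16387 CPM in VAT and 15546 to 18032 CPM in LN, and the list median was -0.05. Srsf5, a serine and arginine rich splicing factor, had 825, 956, 842 and 1115 CPM across VAT and 1809, 1554, 1473 and 1852 CPM across LN (log2 fold change -0.84 ± 0.11, adjusted p = 0.000274). The RNA helicase Ddx5 had 1294, 1216, 1001 and 1067 CPM across VAT and 1835, 1830.3, 2008 and 1891 CPM across LN (log2 fold change -0.72 ± 0.11, adjusted p = 0.000749). Both differences are under 2-fold and still larger than the spread between libraries. Btg2, an antiproliferative factor that recruits deadenylases, rose from 296 ± 48.7 to 556 ± 127 CPM (adjusted p = 0.0273), a call lost without any 1 of VAT replicates 1 or 4 or LN replicates 1, 3, or 4.

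Chaperones of the cytosol and of the endoplasmic reticulum (ER) rose in part. Of 33 cytosolic heat shock genes 3 rose (Hspa8, Hsp90aa1, and Hsp90ab1) and none fell, of 26 genes of the unfolded protein response 3 rose (Hspa5, Hsp90b1, and Manf) and 1 fell, and of 54 genes of ER import and folding 3 rose (Spcs2, Sec11c, and Pdia3). The medians were 0.28, 0.62, and 0.39, and without the 3 VAT libraries 5, 2, and 2 rose. Hspa8, the constitutive cytosolic HSP70, had 2036, 1339, 1487 and 1848 CPM across VAT and 672, 576, 704 and 469.8 CPM across LN (log2 fold change 1.47 ± 0.17, adjusted p = 0.000116). Hspa5, the ER chaperone BiP, had 2060.4, 1141, 1939 and 1341 CPM across VAT and 247, 397, 272 and 277 CPM across LN (log2 fold change 2.44 ± 0.46, adjusted p = 0.00605). Every VAT library exceeded every LN library in both genes. Hsp90b1, its partner GRP94, rose from 262 ± 38.4 to 536 ± 156 CPM (adjusted p = 0.0196, and 0.0776 without the 3 VAT libraries). Trib3, a target of the ATF4 branch of ER stress, was at 0 counts in VAT and at 11.7, 35.02, 118 and 38.05 CPM in LN, at least 714-fold higher in LN (adjusted p = 0.0271, and 0.0678 without the 3 VAT libraries).

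The 2 large ER chaperones share a promoter element, the ER stress element of CCAAT followed after 9 bases by CCACG, which was present in 17 of 9314 promoters (0.183%) on either strand. Of 4 risen genes of the chaperone and ER lists with a RefSeq promoter, Hspa5 and Hsp90b1 hold it. These are also the only 2 of all 281 risen genes with a promoter (0.712%). The other carriers, among them the ER genes Calr, Canx, Dnajc3, and Pdia6, did not rise. It lies 65 bases before the start of Hspa5, at chr2:34771840-34772139 on the plus strand, and 212 and 107 bases before that of Hsp90b1, at chr10:86705395-86705694 on the minus strand, where the second copy is on the opposite strand. The sequences are from RefSeq GRCm38.p6, with the element in capitals.
Hspa5: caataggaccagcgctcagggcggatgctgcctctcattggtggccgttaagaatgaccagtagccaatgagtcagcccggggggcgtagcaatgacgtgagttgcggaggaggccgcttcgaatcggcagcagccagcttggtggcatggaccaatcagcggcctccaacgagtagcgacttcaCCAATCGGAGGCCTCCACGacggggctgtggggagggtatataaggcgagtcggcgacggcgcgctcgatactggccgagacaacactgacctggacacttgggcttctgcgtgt
Hsp90b1: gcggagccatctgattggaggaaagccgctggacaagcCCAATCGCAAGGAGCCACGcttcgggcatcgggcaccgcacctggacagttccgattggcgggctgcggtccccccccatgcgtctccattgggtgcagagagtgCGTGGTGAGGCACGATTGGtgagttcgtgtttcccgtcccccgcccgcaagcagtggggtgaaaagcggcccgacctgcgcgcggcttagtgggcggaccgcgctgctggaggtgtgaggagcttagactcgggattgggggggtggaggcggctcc

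Protein breakdown added a few rises. Of 43 constitutive proteasome subunits and assembly factors 3 rose (Psma2, Psmd8, and Pomp, of which Pomp had an adjusted p of 0.103 without the 3 VAT libraries), 32 were higher in VAT, and the median was 0.43. Psma2, a subunit of the outer ring, rose from 239.6 ± 28.3 to 517 ± 115 CPM (log2 fold change 1.11 ± 0.21, adjusted p = 0.00743). Ubb, a polyubiquitin gene, had 4106, 4208, 4293 and 4349 CPM across VAT and 2339, 2476, 2559 and 2138 CPM across LN (log2 fold change 0.83 ± 0.11, adjusted p = 0.000335), and no library of 1 tissue reached into the range of the other.

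In the metabolic lists 0% to 8.33% of tested members rose and 0% to 6.06% fell, against 2.68% and 1.88% of all genes tested. Odc1, ornithine decarboxylase, which sets the rate of polyamine synthesis, had 525, 723, 761 and 855 CPM across VAT and 37.8, 30.5, 26.6 and 24.1 CPM across LN, a 24.1-fold ratio (log2 fold change 4.59 ± 0.32, adjusted p = 2.71e-06). All VAT libraries were more than 10-fold above all LN libraries. Smox, spermine oxidase of the same pathway, had 732, 438, 74.6 and 415 CPM across VAT and 2.52, 78.3, 35.9 and 45.9 CPM across LN (adjusted p = 0.0251, lost without VAT replicate 1 or LN replicate 3 or 4). Its VAT replicate 3 lay within the LN range. Odc1 and Smox were the 2 calls among 47 genes of nucleotide, one-carbon, and polyamine metabolism. Slc3a2, the heavy chain shared by large neutral amino acid transporters, had 831, 649.6, 919.6 and 643 CPM across VAT and 146, 283, 141 and 189.9 CPM across LN (log2 fold change 2.00 ± 0.24, adjusted p = 0.000151). Mxd1, an antagonist of Myc, rose from 27.1 ± 27.5 to 1014 ± 336 CPM (adjusted p = 0.0288, and 0.0907 without the 3 VAT libraries), and these 2 were the calls among 44 genes of amino acid transport and mTORC1.

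In lipid handling, 2 of 49 fatty acid genes rose. Dgat1, which makes triglyceride from diacylglycerol, had 959, 1008, 843 and 1213 CPM across VAT and 89.04, 77.6, 18.1 and 77.8 CPM across LN (log2 fold change 3.94 ± 0.50, adjusted p = 0.000255). The lowest VAT library was far above the highest LN library. Acadl, an acyl-CoA dehydrogenase of mitochondrial fatty acid oxidation, had 338, 257, 179.8 and 206 CPM across VAT and 43.6, 55.6, 113 and 30.97 CPM across LN (log2 fold change 2.01 ± 0.42, adjusted p = 0.0120). Its lean tissue difference did not pass (log2 fold change 0.55, adjusted p = 0.713), and the difference between the diets did not pass either (1.47 ± 0.57, adjusted p = 0.696). The list as a whole had a median of 0.16 with 25 of 49 genes higher in VAT. Of 36 genes of sphingolipids and phospholipids 3 rose, among them Plaat3, a phospholipase and acyltransferase, from 75.2 ± 17.5 to 295 ± 82.8 CPM (adjusted p = 0.000690) and Atp8b4, a phospholipid flippase, from 149 ± 43.9 to 606 ± 179 CPM (adjusted p = 0.00426). Of 33 cholesterol genes the single call was Acat2, a fall from 42.5 ± 40.1 to 1.24 ± 0.738 CPM in which LN replicate 3 had 1.41 CPM and lay inside the VAT range (adjusted p = 0.0198, and 0.111 without the 3 VAT libraries).

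None of 35 genes of the tricarboxylic acid cycle and none of 113 genes of mitochondrial import, translation, and dynamics passed the test. Slc25a3, the mitochondrial phosphate carrier, was the cycle and carrier gene of highest level, with 478 ± 111 CPM across VAT and 453 ± 80.7 CPM across LN (adjusted p = 0.926). Glycolysis gave 1 rise and 1 fall of 32, and its summed share of counts was 0.459% ± 0.023 in VAT and 0.452% ± 0.040 in LN (exact permutation p = 0.83). On the TMM scale of the levels the same genes summed to 4899 to 5246 CPM in VAT and 3916 to 4696 CPM in LN, which do not overlap, and the list median was 0.26. Gapdh rose from 219.8 ± 39.4 to 529 ± 139 CPM (log2 fold change 1.27 ± 0.22, adjusted p = 0.00358), while Pdk1, the kinase that keeps pyruvate out of mitochondria, fell from 439 ± 176 to 101 ± 32.3 CPM (adjusted p = 0.0408, lost in 14 of 16 fits leaving out 1 library). The symbol Pdk1 stands here for pyruvate dehydrogenase kinase and was counted in the PI3K list as well. Of 79 nuclear genes of the respiratory chain 58 were higher in VAT, with a median of 0.29, yet 1 rose and 1 fell (3 and 0 without the 3 VAT libraries). Cycs, cytochrome c, had 199.7, 239, 314 and 288 CPM across VAT and 52.8, 85.03, 66.8 and 45.2 CPM across LN (log2 fold change 2.06 ± 0.25, adjusted p = 0.000170) and separated the tissues. Cox7a2l, which helps to assemble respiratory supercomplexes, fell from 218 ± 40.2 to 83.9 ± 24.4 CPM (adjusted p = 0.0233, and 0.0907 without the 3 VAT libraries). Of 20 transcripts encoded in mitochondria 16 were lower in VAT, and mt-Cytb fell from 369 ± 73.7 to 137 ± 46.7 CPM (log2 fold change -1.43 ± 0.24, adjusted p = 0.00224). The summed mitochondrial share of raw counts was 0.159% ± 0.066 in VAT and 0.233% ± 0.012 in LN and did not pass (exact two-sided permutation p = 0.143). VAT replicate 3, at 0.256%, lay above all LN libraries.

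Redox and iron genes divided evenly, with 2 of 33 risen and 2 fallen (1 each without the 3 VAT libraries). Txnip, which binds thioredoxin and restrains glucose uptake, had 549, 469, 548 and 641 CPM across VAT and 1014, 1048, 1088 and 1176 CPM across LN (log2 fold change -0.97 ± 0.18, adjusted p = 0.00564). Its target Txn1 moved the other way, from 171 ± 20.7 in LN to 370.1 ± 41.5 CPM in VAT (adjusted p = 0.0206, and 0.0572 without the 3 VAT libraries). Fth1, the ferritin heavy chain, rose from 1320.0 ± 107 to 2351 ± 443 CPM (adjusted p = 0.0231, lost without VAT replicate 3 or LN replicate 1, 3, or 4), and Gclc, of glutathione synthesis, fell from 236 ± 42.1 to 77.5 ± 39.8 CPM (adjusted p = 0.0248, and 0.139 without the 3 VAT libraries).

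**Figure D4:**
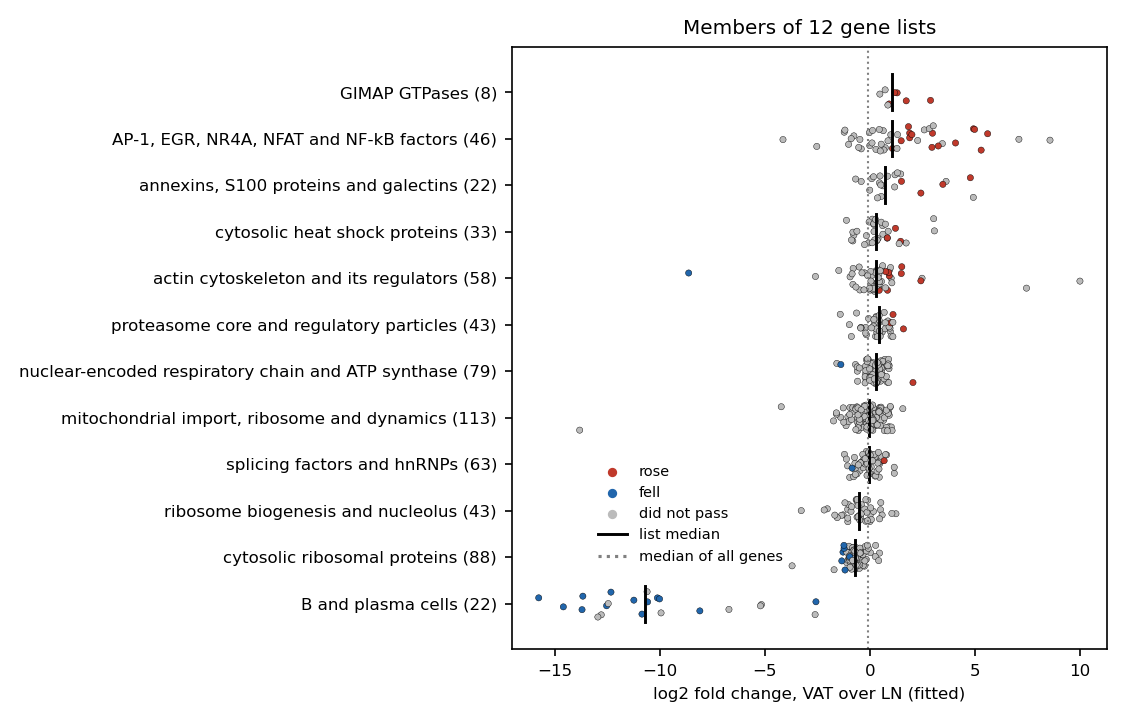
Each point is a tested member of 1 of 12 gene lists (number tested in brackets), placed by its fitted log2 fold change, VAT over LN, with vertical jitter, black bars at list medians, and a dotted line at the median of all genes, -0.10. The 8 GIMAP genes all lie above 0, 83 of 88 ribosomal proteins lie below 0, and all 22 B and plasma cell markers lie below it.

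Actin genes were the list of cell structure with most rises. Of 58 members 8 rose (Actg1, Arpc3, Capza2, Capzb, Vim, Tpm3, Tpm4, and Tagln2), 1 fell, and the median was 0.32. The fall was Gsn, an actin-severing protein (adjusted p = 0.0423). Without the 3 VAT libraries 6 rose and none fell, and Gsn had an adjusted p of 0.184. Actg1, cytoplasmic gamma actin, had 1334, 1131, 1491 and 1249 CPM across VAT and 429, 448, 447 and 511 CPM across LN, a 2.84-fold ratio (log2 fold change 1.5 ± 0.12, adjusted p = 6.09e-06). Vim, the intermediate filament vimentin, had 633, 277, 442 and 271 CPM across VAT and 77.7, 112, 54.9 and 55.5 CPM across LN (log2 fold change 2.44 ± 0.36, adjusted p = 0.000935). In both genes the tissues were apart, with the VAT libraries of Vim spread more widely. The other cytoplasmic actin, Actb, had 4051 ± 821 CPM across VAT and 2763 ± 434 CPM across LN and did not pass (adjusted p = 0.142). Tmsb4x, the actin-binding thymosin, had 9957 ± 732 and 8738 ± 1479.8 CPM (adjusted p = 0.777). Tubb4b, a beta tubulin, rose from 169.8 ± 34.8 to 352 ± 64.8 CPM (adjusted p = 0.00476), and Kif2a, a microtubule depolymerase, fell from 35.7 ± 22.6 to 0.302 ± 0.376 CPM (adjusted p = 0.0271, and 0.0602 without the 3 VAT libraries).

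GIMAP GTPases, small GTP-binding proteins of lymphocyte survival, were higher in VAT in 8 of 8 tested members, and 5 rose (Gimap3, Gimap4, Gimap5, Gimap6, and Gimap7), also without the 3 VAT libraries. Their median was 1.05. Gimap7 had 887, 837, 939 and 1104 CPM across VAT and 91.5, 102, 202 and 110.4 CPM across LN (log2 fold change 2.90 ± 0.29, adjusted p = 3.85e-05). Gimap6, known for a role in autophagy, had 2279, 2821, 2158 and 2489 CPM across VAT and 1236, 897, 1186 and 973 CPM across LN (log2 fold change 1.18 ± 0.14, adjusted p = 0.000182). Gimap4, Gimap6, and Gimap7 are direct neighbours among the genes tested. None of the 9 motifs searched was found in the 5 risen GIMAP promoters.

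Membrane traffic gave 6 rises and 3 falls of 74. Vps37b, a subunit of the ESCRT-I sorting complex, had 471, 737, 340.1 and 599 CPM across VAT and 168, 152, 160.4 and 209 CPM across LN (log2 fold change 1.64 ± 0.20, adjusted p = 0.000182). Sytl3, a synaptotagmin-like partner of Rab27, rose from 24.6 ± 6.40 to 102 ± 35.9 CPM (adjusted p = 0.00303). Cd9, a tetraspanin, had 33.5, 48.2, 40.1 and 37.3 CPM in LN and 1 count in VAT, a ratio of LN to VAT of 6726 (95% counting interval 1207 to 265711) (adjusted p = 0.0150, lost without VAT replicate 1, and 0.0570 with limma voom). Its lean tissue difference was smaller and did not pass (log2 fold change -2.90, adjusted p = 0.565).

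Of 17 members of the BCL2 family 3 rose, all copies of the antiapoptotic gene Bcl2a1, and 1 fell. Bcl2a1d had 99.01, 118, 56.1 and 104 CPM across VAT and 15.04, 12.9, 14.95 and 5.998 CPM across LN (log2 fold change 2.95 ± 0.43, adjusted p = 0.000709). The copies are nearly identical, so that reads may be split among them, and their single values are uncertain. Bbc3, the proapoptotic BH3-only gene known as PUMA, had 10.1, 15.2, 5.76 and 13.7 CPM across VAT and 61.8, 183, 135 and 151 CPM across LN and fell (log2 fold change -3.57 ± 0.50, adjusted p = 0.000622). Among 41 death receptors, caspases, and p53 targets 3 rose and none fell. Gadd45g, a stress-induced activator of p38, had 278, 275, 372 and 188 CPM across VAT and 11.8, 19.5, 8.21 and 13.9 CPM across LN (log2 fold change 4.38 ± 0.60, adjusted p = 0.000464). Casp8, the initiator caspase of death receptors, rose from 296 ± 55.8 to 597 ± 137 CPM (adjusted p = 0.0130, and 0.0737 without the 3 VAT libraries).

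Ccnd2, cyclin D2, had 1065, 814, 1039.8 and 936 CPM across VAT and 92.1, 122, 183 and 115 CPM across LN, a 7.53-fold ratio (log2 fold change 2.91 ± 0.29, adjusted p = 3.47e-05). It was the single rise among 30 G1 genes, and E2f5, a repressor of the E2F family, was the single fall, at 26.2 ± 10.7 CPM in LN and 5 counts in all of VAT (adjusted p = 0.0115). Of 53 genes of replication and mitosis none passed the test, and the list median was 0.21. Mcm6, a subunit of the replicative helicase and the member of highest level, had 387, 188, 152 and 167 CPM across VAT and 350.4, 244, 244 and 345 CPM across LN, groups that overlap.

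In a list of 22 genes of annexins, S100 proteins, galectins, and vimentin 4 rose (S100a6, Lgals1, Lgals3, and Vim) and none fell, with a median of 0.74, and Vim is counted with the actin genes as well. Lgals1, galectin 1, had 725, 439.9, 559 and 721 CPM across VAT and 69.4, 73.2, 43.3 and 32.8 CPM across LN (log2 fold change 3.48 ± 0.40, adjusted p = 0.000136). Lgals3, galectin 3, had 664, 572, 638 and 776 CPM across VAT and 36, 22.9, 8.70 and 28.01 CPM across LN, a 27.7-fold ratio (log2 fold change 4.79 ± 0.58, adjusted p = 0.000184). The 2 galectins had the lowest p-values of their list. Of 11 Ly6 genes 6 were higher and 5 lower in VAT, and 5 rose and 1 fell (3 and 1 without the 3 VAT libraries). Ly6c2, carried by memory and effector CD8 T cells, had 1894, 1282, 1862 and 1356 CPM across VAT and 181, 159, 262 and 245 CPM across LN (log2 fold change 2.92 ± 0.31, adjusted p = 7.59e-05). Several Ly6 genes are close copies and interferon-induced, and their counts may be shared. Ly6d, which is a B lineage gene too, was at 0 counts in VAT and 13.4 ± 8.71 CPM in LN (adjusted p = 0.00248).

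Among glycosyltransferases 1 of 47 rose and 2 fell, and among extracellular matrix genes, proteases, and serpins 4 of 23 rose and 1 fell (2 and 0 without the 3 VAT libraries). Gcnt2, a branching glycosyltransferase, had 21.1, 43.9, 21.1 and 33.6 CPM in VAT and 3 counts in LN, a ratio of 2029.5 (95% counting interval 694 to 9845) (adjusted p = 0.00314). St8sia6, a sialyltransferase, had 41.1, 100.3, 69.5 and 52.8 CPM in LN and 6 counts in VAT (adjusted p = 0.000968), and its lean tissue difference was alike (log2 fold change -11.01, adjusted p = 0.00114). Serpina3f, a protease inhibitor of a mouse gene cluster, had 124, 94.7, 65.96 and 39.5 CPM in VAT while LN had no counts, which is at least 1352-fold higher in VAT (adjusted p = 0.00308). Its neighbours were looked at after this value was seen. Serpina3h, Serpina3i, and Serpina3n rose too, all below 10 CPM, while Serpina3g, at 309, 176, 284 and 276 CPM across VAT and 3.55, 0, 0 and 0 CPM across LN, did not pass (adjusted p = 0.0890).

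Some of the largest differences lie outside every list, and those named here were chosen after their values were seen. Lilrb4b, an inhibitory immunoglobulin-like receptor, had 3586, 3853, 3503 and 3888 CPM across VAT and 15.4, 16.5, 2.44 and 20.3 CPM across LN, a 271-fold ratio (log2 fold change 8.08 ± 1.47, adjusted p = 0.00468). Its close copy Lilrb4a had 871, 738, 454 and 739 CPM across VAT and 0.665, 5.59, 11.9 and 0.574 CPM across LN (adjusted p = 0.0288). All VAT libraries of both were above all LN libraries, and reads may be shared between the copies. Gvin1 and Gvin2, large interferon-inducible GTPases that are also near copies, had 148 ± 18.5 and 146 ± 10.5 CPM in VAT and 6.09 ± 3.54 and 5.60 ± 2.84 CPM in LN (adjusted p = 0.000116 and 8.39e-05). Among the smallest p-values by the fixed rule, Pld3, a lysosomal exonuclease, rose from 317 ± 79.2 to 1103 ± 196 CPM (adjusted p = 3.86e-05), and Ybx3, a cold shock domain protein that binds mRNA, from 37.3 ± 7.60 to 219.6 ± 62.4 CPM (adjusted p = 4.37e-05). Among 14446 tested genes placed in the RefSeq gene order, 19 runs of at least 3 neighbours changed the same way, and 15 of them, with 69 genes, rose. Interferon-induced families such as Ifi200, Ifit, and Gbp make up the longest runs, and others are the Gimap, Serpina3, Serpinb, and Ly6 clusters.

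Slc28a2b, a relative of concentrative nucleoside transporters, had 198, 105, 267 and 94.3 CPM across VAT and 2245, 1779.7, 2048 and 2505 CPM across LN, a 12.9-fold lower mean in VAT (log2 fold change -3.69 ± 0.51, adjusted p = 0.000495, and 0.117 with limma voom). Arl5c, an ARF-like GTPase, had 54.2, 60.4, 98.4 and 85.03 CPM across VAT and 455, 351, 427 and 445 CPM across LN (log2 fold change -2.49 ± 0.30, adjusted p = 0.000183). Both kept the tissues apart and fell in lean libraries as well (log2 fold changes -4.19 and -2.41, adjusted p = 0.000313 and 0.000345). N4bp2, a protein with a DNA nicking domain, had 144, 86.9, 160.4 and 218 CPM in LN and 10 counts in all of VAT (adjusted p = 0.000378). Slc49a4 had 72.96, 125, 41.4 and 95.3 CPM in LN and 2 counts in VAT, a ratio of LN to VAT of 7155 (95% counting interval 1980.4 to 59085) (adjusted p = 0.000532). Apoe, a lipid carrier listed here with macrophages, had 61.98, 124, 139.8 and 174 CPM in LN and 1 count in VAT, a ratio of LN to VAT of 20589 (95% counting interval 3695 to 813259) (adjusted p = 0.000798). Dok3, an adaptor of B cells and myeloid cells, had 40.9, 9.83, 35.9 and 20.5 CPM in LN and 2 counts in VAT, a ratio of 2311 (95% counting interval 639.6 to 19091) (adjusted p = 0.000717). N4bp2, Slc49a4, Apoe, and Dok3 were present in every LN library and near the floor in VAT, beside B cell marker sums of 202 to 359.8 CPM in VAT and 2228 to 3088 CPM in LN. Of these, Dok3 fell in lean libraries too (log2 fold change -10.38, adjusted p = 0.00114), whereas N4bp2, Slc49a4, and Apoe did not pass there (log2 fold changes -3.07, -1.85, and -4.13, adjusted p = 0.162, 0.552, and 0.131).

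**Figure D5:**
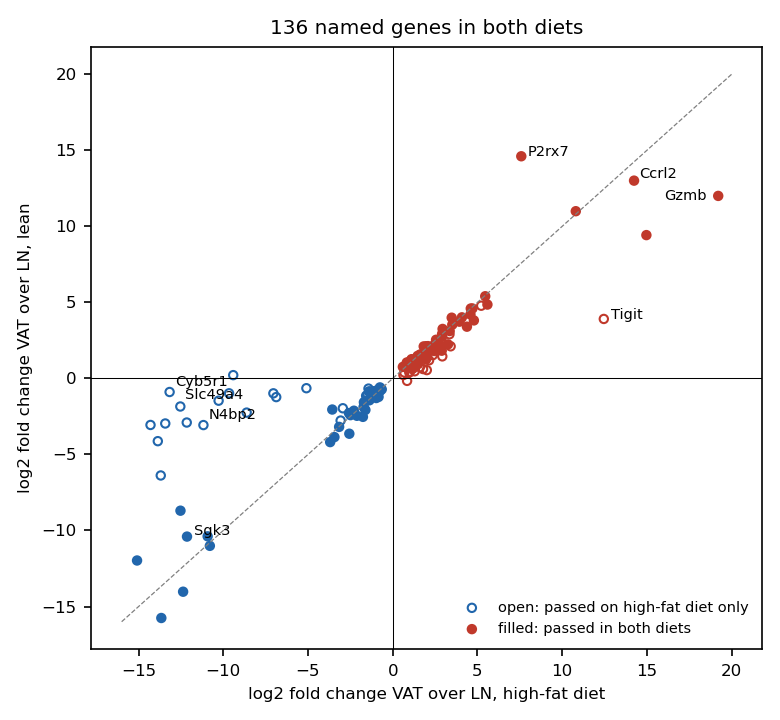
Each point is 1 of 136 named genes called on HFD, with its fitted log2 fold change, VAT over LN, on HFD (x axis) and in lean libraries (y axis), red for rises and blue for falls, filled where it passed in both diets, and a dashed line where both are equal. Most points lie along the line, and open blue points at the left show falls on HFD of 5 log2 units or more that did not pass in lean mice. Not all of these were small there, as Apoe had a lean log2 fold change of -4.13. The difference between the diets was called in 1 of the 136 genes, Cyb5r1.

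Lean libraries gave the same direction for 681 of the 714 called genes, a count given without the matching share over all genes tested. In the same direction 370 passed there, against 476 lean calls (3.04%) of 15675. Both contrasts come from 1 fit and share its estimate of spread. The share that also passed in lean libraries was lowest among the large falls. Of 112 falls under 16-fold 62 (55.4%) passed in lean libraries, and of 182 falls of 16-fold or more 38 (20.9%) did, with median lean log2 fold changes of -1.18 and -2.65 against -1.57 and -10.42 on HFD. Of rises, 182 of 291 under 16-fold (62.5%) and 88 of 129 at or above it (68.2%) passed in lean libraries. These shares carry no test of their own. The test of the difference between the tissue effects of the diets called 3 genes (0.0191%), with 965 at an unadjusted p under 0.05. In VAT of HFD mice Cyb5r1, a cytochrome b5 reductase, had 1 count in 4 libraries, and in LN it had 80.9, 77.3, 141 and 6.42 CPM. In lean mice its means were 39.7 ± 17.4 CPM in VAT and 73.7 ± 27.96 CPM in LN, and the difference between the log2 fold changes was -12.28 ± 1.41 (adjusted p = 0.00878). Ndufaf2, an assembly factor of respiratory complex I, had 1 count in VAT of HFD mice against 17.2 ± 10.8 CPM in LN, and 21.9 ± 23.1 and 17.7 ± 10.9 CPM in lean VAT and LN. The receptor segment Traj61 had no count in VAT of HFD mice. Leaving out 1 library at a time gave between 0 and 24 such genes, a replicate block gave 0, leaving out the 3 VAT libraries gave 46, and DESeq2 gave 703.

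The genes of highest level on HFD, in CPM and without correction for length, were in part the counted genes. In VAT the order began with H2-D1, Gzmb, H2-K1, Tmsb4x, and B2m, and in LN with Tmsb4x, H2-D1, Trbc2, H2-K1, and Shisa5. Shisa5, a membrane protein of the ER, had 7359, 7139, 7509 and 7349 CPM across VAT and 3651, 4046, 3653 and 3375 CPM across LN (log2 fold change 1.00 ± 0.08, adjusted p = 5.71e-06). Ms4a4b, a tetraspan protein of T cells, had 4821, 4887, 5731 and 5837 CPM across VAT and 1691, 1412, 2002 and 1834 CPM across LN (log2 fold change 1.62 ± 0.12, adjusted p = 2.71e-06). Both were higher in every VAT library. Arhgap45, a GTPase activator, and Rsrp1, a splicing-related protein, were among the 10 highest genes of LN and did not pass (adjusted p = 0.0809 and 0.679). The 100 highest genes took 22.0% ± 0.32 of counts in VAT and 17.7% ± 0.38 in LN, and interferon-stimulated genes took 13.5% ± 0.28 and 3.98% ± 0.11 (exact two-sided permutation p = 0.0286 for both, adjusted 0.0416).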

How the data were processed

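Bulk RNA-seq was measured in 16 libraries of OT-I T cells, 4 each from LN and VAT of lean and HFD mice. The authors deposited raw counts per gene as whole numbers in a single table, and the tools named, per the submitters' processing notes, are kallisto 0.42.4 and DESeq2. These notes name the human build GRCh38 although the genes are mouse, so no coordinate was taken from the files. How kallisto estimates became whole counts is not given in the sources used here. Of 54456 genes, 15675 passed edgeR's filterByExpr and were tested with edgeR 4.0.16 (R 4.3.3; TMM normalisation, robust quasi-likelihood fit, all 16 libraries, group as the sole factor) and Benjamini-Hochberg adjustment at 0.05. The common dispersion was 1.52, which limits how small a difference can pass. Standard errors were computed from the fold change and its F statistic. Alternatives used DESeq2 1.42.0, limma 3.58.1, other normalisations and filters, a replicate block, a fit of only the groups compared, and libraries left out. The fits were tested on simulated data. Library measures were compared with exact permutation tests (SciPy 1.17.1).

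Genes were named by rule: the 20 rises and 20 falls of smallest p with no overlap and at least 20 CPM, leaving out the 3 counted lists, up to 2 rises and 2 falls of each other list with at least 5 CPM, the member of highest level of a list without calls, and the 10 highest genes of each tissue. Other named genes are members of a list that is given by name or were chosen after their values were seen. The members and lists were chosen with earlier results of these data known. A few genes that the rule names are not reported here. The main fit did not treat same-numbered samples as paired. Motifs were searched in RefSeq promoters of GRCm38.p6.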

Additional observations from a re-analysis of the deposited data

Results flagged for a closer look

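In 16 groups of 4 libraries a single library lay further from the rest than Dixon's 95% criterion allows. For named genes 269 groups were tested and 19 with 3 counts or fewer were left out, and 32 groups of library measures were tested. Chance marks about 1 in 20 groups.

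In VAT, Il2rg had 1299 CPM in replicate 4, Il7r had 274 CPM in replicate 1, Crem had 739 CPM in replicate 3, and Mcm6 had 387 CPM in replicate 1. Arhgap45 was low in VAT replicate 3, at 1548 CPM, N4bp2 had 0.241 CPM in replicate 3 and Gsn 0.350 CPM in replicate 4, both from few counts. The 100 highest genes took 21.6% of counts in VAT replicate 2, the lowest of its group. In LN, replicate 2 stood apart for Atp8b4 at 83.7 CPM, Fth1 at 1479.7 CPM, and Rasgrp2 at 63.9 CPM. Replicate 3 of LN stood apart for Adgrg5 at 142 CPM and Dgat1 at 18.1 CPM, and replicate 4 for Eif5a at 415 CPM, Peli1 at 489.6 CPM, and P2rx7 at 2.91 CPM.

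The tissue effect differed between the diets, by the interaction term of edgeR's quasi-likelihood test, in Cyb5r1 (HFD minus lean log2 fold change -12.28, adjusted p = 0.00878), Ndufaf2 (-11.34, adjusted p = 0.0476), and Traj61 (-9.75, adjusted p = 0.0461). In all of them the VAT libraries of HFD mice held at most 1 count together.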

How the results depend on the processing

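DESeq2 called 1224 rises, 1474 falls, 1683 lean genes, and 703 diet differences, and limma voom called 1373 lean genes and 6 diet differences. Falls were the less stable direction: there were 156 with no filter and 170 with the replicate block. Leaving out 1 HFD library gave 179 to 282 falls (179 without LN replicate 4 and 188 without VAT replicate 1) and 304 to 370 rises. With 1 lean library left out there were 231 to 399 falls and 368 to 487 rises. Over all 16 libraries, leaving out 1 gave 325 to 492 lean calls. The diet difference gave 1 gene with a 5 CPM filter, with no filter, and with upper quartile normalisation, and 0 with the replicate block. It gave 0 to 24 genes when 1 library was left out. There were 24 without HFD VAT replicate 4, 17 without lean VAT replicate 1, and 12 without HFD VAT replicate 2. Without HFD VAT replicates 1 and 3 and lean VAT replicate 1 there were 46. Without those 3 libraries 352 genes rose and 316 fell, and 436 of these 668 were among the 714. The replicate block called 505 genes, of which 488 were among the 714. A fit of the HFD libraries alone called 389 rises and 299 falls. Of these 688 genes, 538 were among the 714. In that fit 21 of 135 named calls were lost, and P2rx7 and Sipa1l1 lost theirs in no other setting. For the HFD comparison limma voom called 1010 genes, of which 571 were among the 714. Deviations of same-numbered LN and VAT libraries did not correlate (r = 0.00767, -0.0183, 0.0326, and -0.00689). Differently numbered pairs gave r from -0.0301 to 0.0257. With so wide a spread between libraries (common dispersion 1.52) a shared animal could be missed, so these values do not settle whether the samples are paired. Of 136 named calls, 87 passed in all 25 settings and 103 in every fit that left out 1 library, and none changed direction. Birc3, Snrpb, Dcp2, and Gsn lost their call in 18 settings each, and Ctcf, Pdk1, and Peli1 in 17. Single libraries also ended the calls of Slamf6 and Trib3 (6 each), Cox7a2l, Gclc, and Hsp90b1 (5 each), Mxd1 (4), Acat2, Kif2a, and Txn1 (3 each), and Crem (2). The cause of these changes was not tested.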
